A study of Mus musculus with 9 samples.

Results

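Of 15975 LSK cells from mouse bone marrow that passed the filters, 352 (2.20%) were in S phase with histone mRNA. LSK cells are lineage-negative, cKit-positive, Sca1-positive cells, the fraction of the marrow that holds the haematopoietic stem cells and multipotent progenitors. Cells were selected on their measured counts. A cell was chosen when it had at least 5 UMIs (unique molecular identifiers, 1 for each captured transcript) of the linker histone gene Hist1h1b, at least 1 UMI each of Top2a, a DNA topoisomerase, and Mki67, a marker of proliferating cells, and UMIs of fewer than 4 of 7 genes of G2 and mitosis (Cdc20, Ccnb1, Ccnb2, Ube2c, Cenpf, Aspm and Cdkn3). These measured values chose the cells, so the levels of the 10 genes in S-phase cells against other cells are a description of the choice and were not tested.

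In S phase a cell copies its DNA once and at the same time makes enough histone protein to pack the new copy. Most of these histones come from replication-dependent genes that lie in clusters, have no introns and are transcribed at a high rate only while DNA is being copied. Their mRNAs end in a stem-loop, bound by the protein Slbp, in place of the poly-A tail of other mRNAs. Most blood stem cells rest outside the cell cycle, while the progenitors made from them divide often.

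The study asked what a short systemic treatment with CASIN, a small molecule that inhibits the activity of the GTPase Cdc42, does to aged mice, and single-cell RNA-seq of LSKs was 1 of its assays. There were 3 groups of 3 libraries each, all from C57BL/6 mice. Young mice were 10-12 weeks old and aged mice older than 80 weeks. CASIN mice were aged mice given 25 mg/kg CASIN by 4 intraperitoneal injections 24 h apart, the young and aged controls received the cyclodextrin vehicle alone, and marrow was taken on day 5. No group carried a transgene or a deletion. The labels do not say whether a library came from 1 animal or from a pool, so p-values measure the spread between libraries, and all cells had been frozen viably and thawed before capture.

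The libraries were sequenced in 2 batches. Batch 1 held young 1, young 2, aged 1, CASIN 1 and CASIN 2, and batch 2 held young 3, aged 2, aged 3 and CASIN 3. RNA of the X-inactivation gene Xist was found in 0.0452% to 0.191% of the cells of each batch 1 library and in 99.3% to 100% of those of each batch 2 library, so batch and the sex-linked RNA of the mice cannot be told apart. S-phase cells numbered 68, 71 and 43 in the young libraries, 20, 25 and 25 in the aged and 19, 33 and 48 in the CASIN libraries, and their summed depth ran from 445244 to 1817746 UMIs per library. Their median depth per cell was 17285 to 29196 UMIs, above the 9004 to 13014.5 UMIs of the cells outside the cycle in the same libraries. Of these cells, 1 carried a barcode that was also kept in another library, and 3 were called doublets.

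The label was checked against genes that the choice did not use, and against the gate. Rrm2, a subunit of ribonucleotide reductase, averaged 159 ± 41.7 CPM (UMIs of the gene per 1e+06 UMIs of the summed cells of a library; ± is the SD over 9 libraries) in S-phase cells and 4.15 CPM in cells outside the cycle. Tyms, which makes thymidylate, averaged 336 ± 72.1 CPM against 26.3 CPM, and Pcna, the sliding clamp of the replication fork, 237 CPM against 69.0 CPM. Kit was detected in 82.7% of S-phase cells and Ly6a, which encodes Sca1, in 66.5%. Both gate genes were lower than outside the cycle, at 94.5 CPM against 175 CPM for Kit and at 86.7 CPM against 175 CPM for Ly6a. The defining genes of S phase and of the LSK gate were therefore both present.

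The cells border on other cells at both limits of the choice. At the lower limit, 36 cells had exactly 5 Hist1h1b UMIs and 62 further cells just missed it with 4. At the upper limit, 157 of the 352 cells had 3 of the 7 genes of G2 and mitosis and 166 cells with enough Hist1h1b had 4. Hist1h1b was at a median of 12 UMIs per S-phase cell and reached 95. Among cells without Top2a or Mki67 UMIs, 1.06% to 8.51% per library had a Hist1h1b UMI and 0% to 0.477% had 5 or more. Below, S-phase cells are set beside 1285 G2/M cells (4 or more of the 7 genes), 1121 cells entering S (4 or more of Ccne1, Ccne2, Cdc6, Mcm10, Dtl, Exo1, Cdc45 and Uhrf1, and in neither class above) and the 13217 other cells, called outside the cycle. That name stands for cells in none of these classes, and some of them held Top2a or Mki67 UMIs.

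Replication-dependent histone genes were abundant in these cells. The 67 listed genes, Hist1h1b of the choice included, summed to 8863 CPM in S-phase cells, of which H2A genes gave 5262 CPM, H1 genes 1733, H4 genes 808, H2B genes 535 and H3 genes 524. Of the 67, 36 reached 20 CPM and 5 had no UMI in any S-phase cell. Among the 36, 33 were more than 2-fold above their level outside the cycle and 24 were above their level in G2/M cells, again counting Hist1h1b. Without it the sum was at 3610 to 12970 CPM per library in S-phase cells and at 2720 to 12027 CPM in G2/M cells, and G2/M cells were the higher in young 1 and CASIN 1. Reads were primed on poly-A, which most of these mRNAs lack, and close histone copies share sequence, so the levels are those of the captured transcripts and the split between near-identical copies is uncertain.

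Among the core histones, Hist1h2ap (chr13:21833026-21833507) stood at 2983 ± 1416 CPM in S-phase cells, at 2373 CPM in G2/M cells, at 566 CPM in cells entering S and at 171 CPM outside the cycle. Hist1h2ae followed the same order, with 1626 ± 808 CPM, 1280, 268 and 86.3 CPM. Hist1h2an, with 90.2 ± 86.3 CPM, was 8.40-fold above all other LSK cells, the highest ratio of any gene outside the choice with at least 50 CPM. Among the linker histones, Hist1h1b itself was at 786 ± 367 CPM and Hist1h1a at 220 ± 102 CPM. Hist1h1e was at 413 ± 228 CPM and did not separate S-phase from G2/M cells, where it was at 412 CPM. Hist1h1c, a linker histone that is also made outside S phase, was at 169 ± 18.3 CPM, close to its 141 CPM outside the cycle.

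Of the 44 histone genes with enough UMIs to test, 38 lay on chromosome 13, 4 on chromosome 3 and 2 on chromosome 11. The promoters of 4 of them are shown because they carry the short elements that the families share. Each is 300 bases of RefSeq sequence on GRCm38.p6, from 250 bases before the start of transcription to 50 after it, 5′ to 3′ on the strand of the gene. The windows are chr13:21780576-21780875 (minus strand) for Hist1h1b, chr13:23622509-23622808 (minus strand) for Hist1h1e, chr13:23571171-23571470 (minus strand) for Hist1h2ae and chr13:23571150-23571449 (plus strand) for Hist1h2bg. In the H1 genes, capitals mark the box CCAAT, the core promoter element TATAAA and the H1 box AAACACA, each on either strand. In the H2 genes, capitals mark the box CCAAT, the letters TATAAA and the octamer ATTTGCAT, which Oct1 binds, each on either strand.
Hist1h1b: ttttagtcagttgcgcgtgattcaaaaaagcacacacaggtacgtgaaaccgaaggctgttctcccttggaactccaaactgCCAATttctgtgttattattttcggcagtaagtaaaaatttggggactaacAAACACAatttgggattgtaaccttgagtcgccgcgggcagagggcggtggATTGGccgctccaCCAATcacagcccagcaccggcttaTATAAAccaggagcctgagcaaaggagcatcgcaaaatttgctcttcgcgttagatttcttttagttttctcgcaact
Hist1h1e: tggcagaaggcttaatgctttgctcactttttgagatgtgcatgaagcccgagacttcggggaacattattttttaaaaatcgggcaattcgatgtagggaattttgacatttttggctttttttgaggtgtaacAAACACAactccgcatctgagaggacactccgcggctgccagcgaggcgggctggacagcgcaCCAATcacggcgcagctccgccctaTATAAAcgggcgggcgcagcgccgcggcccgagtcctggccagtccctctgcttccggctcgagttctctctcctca
Hist1h2ae: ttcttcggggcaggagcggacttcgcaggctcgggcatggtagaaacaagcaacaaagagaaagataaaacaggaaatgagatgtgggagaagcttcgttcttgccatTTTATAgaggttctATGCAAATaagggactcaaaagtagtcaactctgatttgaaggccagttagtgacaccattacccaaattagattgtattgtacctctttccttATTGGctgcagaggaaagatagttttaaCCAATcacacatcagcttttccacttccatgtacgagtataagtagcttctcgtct
Hist1h2bg: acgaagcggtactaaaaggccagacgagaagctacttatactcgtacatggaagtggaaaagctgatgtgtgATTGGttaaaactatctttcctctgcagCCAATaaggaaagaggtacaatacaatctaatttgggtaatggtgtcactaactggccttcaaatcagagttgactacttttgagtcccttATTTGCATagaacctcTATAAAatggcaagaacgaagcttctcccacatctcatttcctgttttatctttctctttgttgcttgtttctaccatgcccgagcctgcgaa

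Hist1h2ae and Hist1h2bg are transcribed away from each other from the same stretch of chromosome 13, so their windows overlap and the last sequence is largely the reverse complement of the one before it. The sites marked in both are the same, and the TATAAA match in Hist1h2ae lies on the strand of Hist1h2bg. RefSeq windows were matched for 39 of the 44 genes, in 40 windows, and both strands were searched. CCAAT was in 37 of the 40 windows (92.5%), against 37.4% of all 32851 promoter windows of the same length, and in all 5 of the H1 windows. TATAAA was in 25 (62.5%, against 13.6%). A match on either strand and at any place was counted, so it need not be the core promoter element of that gene. A site in overlapping windows counts in each. The H1 box was in 4 of 5 H1 windows and in 7.18% of all windows. The octamer was in 6 of 13 H2B and 5 of 11 H2A windows, in none of the H1, H3 or H4 windows, and in 1.74% of all windows. TTTGAA, the core of the cell cycle homology region of late cell cycle genes, was in 20 of 40 windows (50%, against 17.9%). These are matches of letters, and binding was not measured.

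**Figure D1:**
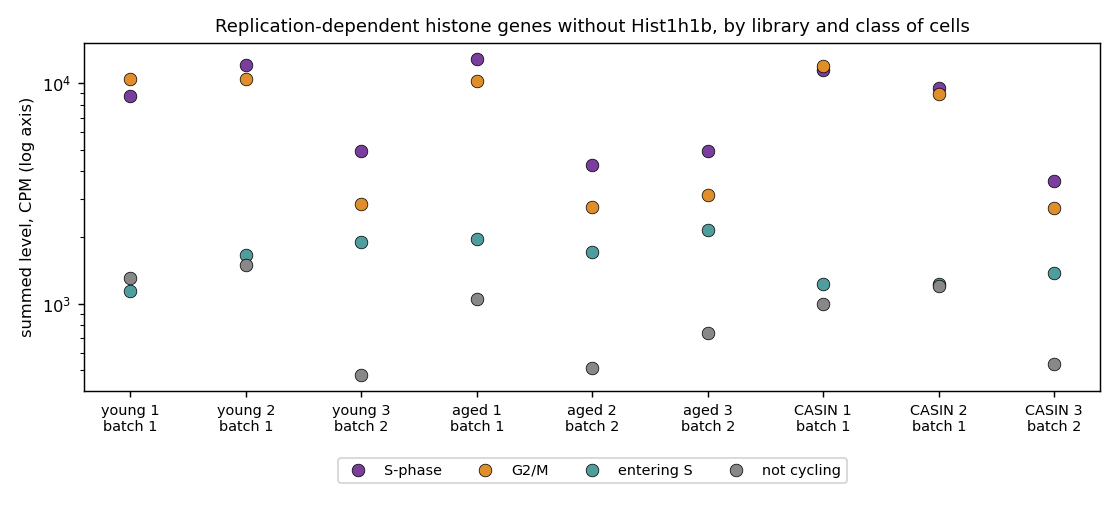
Summed level of the replication-dependent histone genes without Hist1h1b, in CPM on a log axis, for each library along the horizontal axis, with 1 point per class of cells (not cycling stands for cells outside the cycle). In S-phase cells the 5 batch 1 libraries lie at 8770 to 12970 CPM and the 4 batch 2 libraries at 3610 to 4942 CPM, whatever their group.

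Histone levels differed by sequencing batch far more than by group. Summed over the listed genes without Hist1h1b, S-phase cells held 8770, 12162 and 4938 CPM in young 1 to 3, 12970, 4261 and 4942 CPM in aged 1 to 3, and 11464, 9569 and 3610 CPM in CASIN 1 to 3. Every batch 1 library was above every batch 2 library, and within each batch the groups were mixed. Between batches, 37 of the 44 tested histone genes, Hist1h1b of the choice among the 37, were lower in batch 2 and 2 were higher by edgeR's quasi-likelihood test with Benjamini-Hochberg adjustment, with a median log2 difference of -1.84 against 0.02 over all 7340 genes tested. Counts of Hist1h1b chose the cells, so its own test carries no weight in this tally. Of all genes tested 54.5% differed between batches, with 27.3% of all genes lower and 27.1% of all genes higher in batch 2.

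Within the family the batch difference was uneven. Hist1h2an was lower in batch 2 by the most of the genes named here, at 156 CPM in batch 1 and 7.77 CPM in batch 2 (log2 difference -4.64 ± 0.23, SE; adjusted p = 1.87e-10). Hist1h2ap went from 3954 CPM to 1770 CPM (-1.44 ± 0.18; adjusted p = 5.27e-06) and Hist1h1e from 591 CPM to 191 CPM (-1.70 ± 0.14; adjusted p = 4.68e-08). Hist1h1c, with 167 CPM and 170 CPM, did not pass the test (-0.13 ± 0.12; adjusted p = 0.388). The H2B genes Hist1h2bc (44.1 CPM and 96.4 CPM; adjusted p = 0.00154) and Hist3h2ba (22.6 CPM and 38.5 CPM; adjusted p = 0.0148) were higher in batch 2. In G2/M cells the summed histone genes without Hist1h1b were at 8917 to 12027 CPM in batch 1 and at 2720 to 3100 CPM in batch 2. In cells entering S the batches overlapped, at 1145 to 1976 CPM in batch 1 and 1372 to 2171 CPM in batch 2.

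The choice of cells rests on Hist1h1b, whose counts per cell also differed by batch. The median Hist1h1b count of an S-phase cell was 19, 25 and 7 UMIs in young 1 to 3, 24.5, 6 and 9 UMIs in aged 1 to 3, and 35, 22 and 7 UMIs in CASIN 1 to 3. The share of S-phase cells with 20 or more Hist1h1b UMIs was 50% to 65% in batch 1 and 0% to 16% in batch 2. S-phase cells of batch 2 thus lay nearer the limit in every group.

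No histone gene passed the test between the groups. With the batch as a term, edgeR's quasi-likelihood test called 0 of the 43 tested histone genes outside the choice in any of the 3 comparisons, against 0.232% of all genes for aged against young, 0.15% for CASIN against aged and 0% for CASIN against young. The median log2 fold changes of the 43 genes were 0.20, -0.08 and 0.01, beside 0.01, -0.000676 and 0.01 over all genes tested. At an unadjusted p under 0.05 there were 5, 8 and 4 of the 43, beside 9.35%, 7.51% and 4.88% of all genes, and DESeq2 called 0 in each comparison.

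The machinery that copies DNA was on in these cells and in the cells entering S. The latter were chosen on Cdc6, Mcm10 and Cdc45, which are in the licensing list, and on Uhrf1, which is in the chaperone list. Their sums for these lists are thus partly set by that choice. Genes of origin licensing and the replicative helicase summed to 2377 ± 131 CPM in S-phase cells, 2339 CPM in cells entering S, 1458 CPM in G2/M cells and 649 CPM outside the cycle. Genes of the replication fork and its polymerases followed the same order with 3502 ± 292, 3134, 2278 and 1089 CPM, as did genes of nucleotide synthesis with 4005 ± 516, 3481, 2491 and 1386 CPM. Each of these sums was higher in S-phase cells than in all other LSK cells in 9 of 9 libraries. Histone mRNA without Hist1h1b summed to 1600 CPM in cells entering S and to 8076 ± 3691 CPM in S-phase cells, which were chosen for Hist1h1b.

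Among licensing and helicase genes, Mcm6, part of the ring that unwinds DNA, was at 332 CPM against 97.1 CPM outside the cycle. Gmnn, whose protein geminin blocks licensing once S phase has begun, was at 215 CPM. At the fork, Lig1, which joins Okazaki fragments, was at 259 CPM against 43.1 CPM. Among genes that supply nucleotides, Dut, which keeps dUTP out of DNA, was at 669 CPM against 137 CPM, and Rrm1, the large subunit of ribonucleotide reductase, at 174 CPM against 26.8 CPM. All of these genes were above their level outside the cycle. Of members with at least 20 CPM, 17 of 22 licensing genes, 26 of 32 fork genes and 13 of 23 nucleotide genes were more than 2-fold above all other LSK cells, beside 312 of 5557 genes in all.

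Genes that handle the histones were high as well. Slbp, which binds the stem-loop of histone mRNAs, was at 332 CPM in S-phase cells and 67.6 CPM outside the cycle. Nasp, a chaperone of H3 and H4, was at 238 CPM against 54.5 CPM. The list of chaperones and chromatin assembly summed to 3469 ± 181 CPM, against 3160 CPM in cells entering S and 1307 CPM outside the cycle. Variant histones, which are made throughout the cycle, summed to 14340 ± 1088 CPM and to 8420 CPM outside the cycle, a smaller ratio than for the replication-dependent genes.

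Repair and checkpoint genes were also high. They summed to 1130 ± 61.3 CPM in S-phase cells and to 353 CPM outside the cycle. Brca1, which acts in repair of broken DNA, was at 64.1 CPM against 4.49 CPM. Cyclin genes differed in where they were highest. Ccne2, a cyclin of the start of S phase, was at 60.9 CPM in S-phase and 15.2 CPM in G2/M cells, and E2f1, which drives S-phase genes, was at 72.8 CPM and 21.0 CPM. Ccna2, a cyclin of S phase and G2, was at 73.5 CPM and 109 CPM, the reverse order.

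Across 348 S-phase cells reduced to 8000 UMIs each, Hist1h2ap counts went with those of Hist1h2ae (Pearson's r = 0.783) and Hist1h1b (r = 0.596). The summed histone genes went with the genes of G2 and mitosis (r = 0.392) more than with those of licensing (r = -0.0931) or nucleotide synthesis (r = 0.179). These are descriptions across cells that share libraries and batches, and Hist1h1b and the genes of G2 and mitosis were used in the choice.

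**Figure D2:**
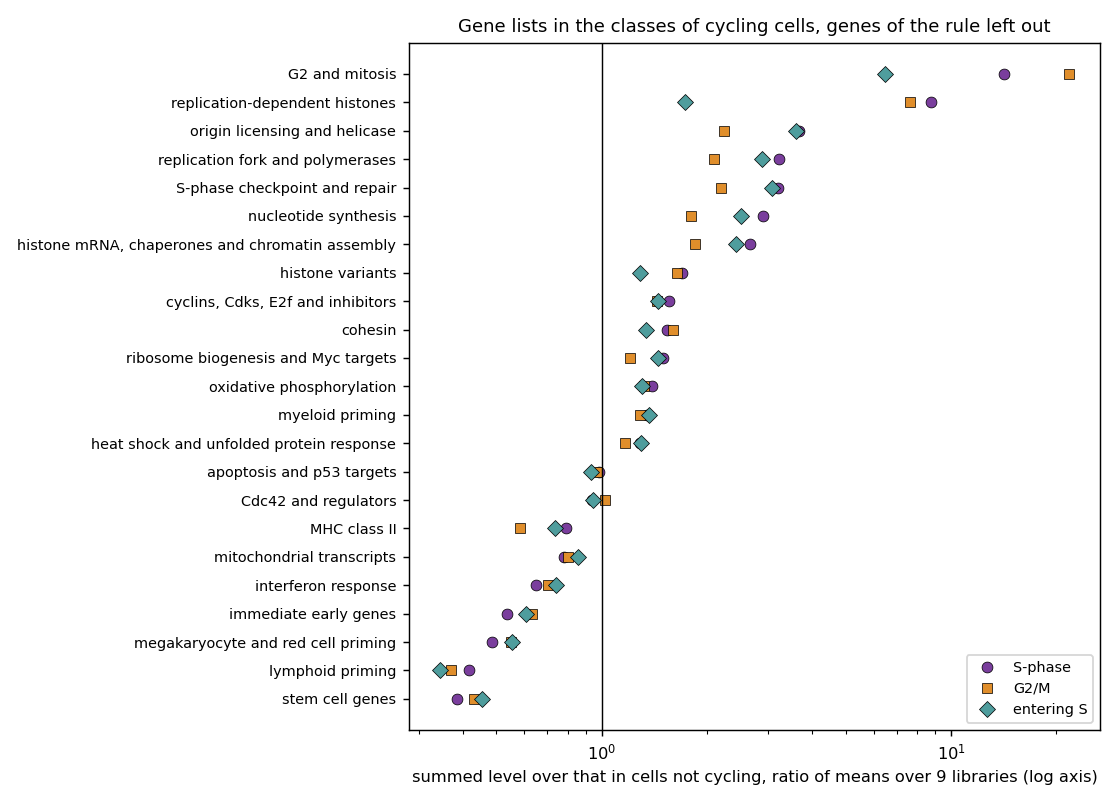
Ratio of the summed CPM of each gene list in S-phase, G2/M and entering-S cells to that in cells outside the cycle, on a log axis, from means over 9 libraries and without the genes that chose the S-phase cells. Genes that chose the cells entering S, such as Cdc6, Mcm10, Cdc45 and Uhrf1, stay in their lists. Histone genes are high in S-phase and G2/M cells, replication genes highest in S-phase cells and cells entering S, and stem cell genes lie below 1 in all 3 classes.

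Genes of stem cells were low. The stem cell list summed to 728 ± 85.3 CPM in S-phase cells and to 1887 CPM outside the cycle, and was lower than in all other LSK cells in 9 of 9 libraries. Hlf, a transcription factor of stem cells, was at 116 CPM against 224 CPM and Mecom, another, at 57.2 CPM against 117 CPM. Procr, which marks the stem cells among LSKs, was at 24.1 ± 16.5 CPM, 0.271 times its level in all other LSK cells, and Nupr1 was at 0.125 times. Megakaryocyte and red cell genes (391 CPM against 807 CPM) and immediate early genes (4464 CPM against 8340 CPM) were lower in S-phase cells in 9 of 9 libraries too. Ccnd2, a cyclin of G1, was at 99.2 CPM against 217 CPM, and Cdkn1b, an inhibitor of the cycle, at 44.1 CPM against 65.1 CPM.

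Some genes of the lineages within LSKs were found in S-phase cells at other shares than in cells outside the cycle. To compare cells of unlike depth, each cell was reduced to 4000 UMIs, which left 351 of the 352, and was sorted by whether it had a UMI of Dntt, then Flt3, then Procr. Dntt, the DNA polymerase of early lymphoid cells, was found in 34.8% ± 12.5 of S-phase cells (SD, n = 9 libraries) and in 15.9% ± 8.28 of cells outside the cycle, and was higher in S-phase cells in 9 of 9 libraries. Cells with Procr and without Dntt and Flt3 made up 4.99% ± 3.67 of S-phase cells and 25.5% ± 9.03 of those outside the cycle, and were fewer in 9 of 9 libraries. Mpo, the granule peroxidase of myeloid cells, was found in 28.1% ± 9.11 of S-phase cells and 10.5% ± 6.04 of those outside the cycle, again higher in 9 of 9 libraries. Other myeloid genes did not all follow Mpo. Elane was found in 1.80% ± 2.19 of S-phase cells and 0.775% ± 0.521 outside the cycle, and was higher in S-phase cells in 4 of 9 libraries. Prtn3, of the same granules, was lower in S-phase cells than in all other LSK cells in every library but aged 2 and aged 3. In each of those libraries 1 cell held most Prtn3 UMIs. Cells with none of the 3 gate genes were 49.2% ± 11.3 of S-phase cells and 44.5% ± 5.44 outside the cycle. Cells with Flt3 and without Dntt were 11.0% ± 4.76 of S-phase cells and 14.0% ± 4.73 outside the cycle, with S-phase cells higher in 5 of 9 libraries. The megakaryocyte gene Pf4 was found in 6.71% ± 4.42 and 9.55% ± 3.04, with S-phase cells higher in 4 of 9 libraries. G2/M cells differed from S-phase cells by less than the SD in the following 4 measures. They had Dntt in 31.7% ± 9.49, Procr without Dntt and Flt3 in 5.60% ± 3.49, Mpo in 24.9% ± 6.37 and none of the gate genes in 50.2% ± 7.73. A cell without a UMI may still express the gene, and free RNA can give a UMI to a cell that does not. As a measure of the latter, among 79 cells with 400 or more Igkc UMIs of 4000, a limit chosen after seeing the data, 1.27% had a UMI of Dntt, 1.27% of Flt3, 3.80% of Mpo and 0 of 79 of Procr, which allows up to 3.80%. Their median depth was 31877 UMIs, against 24074 in S-phase cells and 10813 outside the cycle, before cells were reduced. Over its 13 genes the lymphoid list summed to 1146 CPM in S-phase cells and 2755 CPM outside the cycle, where Ighm alone was at 1763 CPM against 129 CPM, while Dntt went the other way, at 337 CPM against 162 CPM.

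The share of LSKs in S phase was lower in aged than in young mice. S-phase cells made up 3.15%, 3.21% and 3.55% of the cells of young 1 to 3, 1.27%, 1.48% and 1.41% of those of aged 1 to 3, and 1.70%, 1.83% and 1.97% of those of CASIN 1 to 3. The 3 groups did not overlap, with CASIN between aged and young. The limit is a fixed count of UMIs, and young libraries were deeper than aged ones. Kept cells had a median of 14607.5, 12499 and 13169.5 UMIs in young 1 to 3 and of 10528, 11500 and 10338.5 in aged 1 to 3. In CASIN 1 to 3 it was 13884.5, 9558 and 10120. The part of depth in the differences was not tested beyond the reduced cells below. The aged share, 1.39% ± 0.104 (SD, n = 3), was 1.92 points below the young share of 3.30% ± 0.214, or 0.420 times it. Within batch 1 the difference was -1.91 points and within batch 2 it was -2.10 points. Other settings gave -2.82 and -0.333 points within the batches with cells reduced to 4000 UMIs and the Hist1h1b limit lowered to 2, -2.28 and -0.779 points with cells reduced to 10000 UMIs and the limit kept at 5, and -1.33 and -0.808 points with 10 or more Hist1h1b UMIs. For aged 1, with 20 S-phase cells, the 95% Wilson interval was 0.827% to 1.96%, which like all such intervals here covers counting error only.

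CASIN mice had 1.83% ± 0.133 of LSKs in S phase, 0.444 points above aged mice (0.490 within batch 1 and 0.522 within batch 2) and 1.47 points below young mice (-1.42 and -1.58). The exact permutation test (two-sided) gave p = 0.1 for each of the 3 comparisons, also after Benjamini-Hochberg adjustment over the 3, which is the smallest value that 3 libraries against 3 allow. The difference between CASIN and aged mice rested on where the limit was set. With 3 or more Hist1h1b UMIs as the limit it was 0.0146 points, the groups overlapped and the exact permutation p was 1. With cells reduced to 10000 UMIs, shallower cells left out (823 to 1833 cells per library stayed, of 1118 to 2441) and all markers read anew, the shares were 4.86%, 5.38% and 2.14% in young, 2.84%, 0.870% and 1.85% in aged and 3.06%, 4.37% and 1.85% in CASIN libraries, and all 3 groups overlapped.

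**Figure D3:**
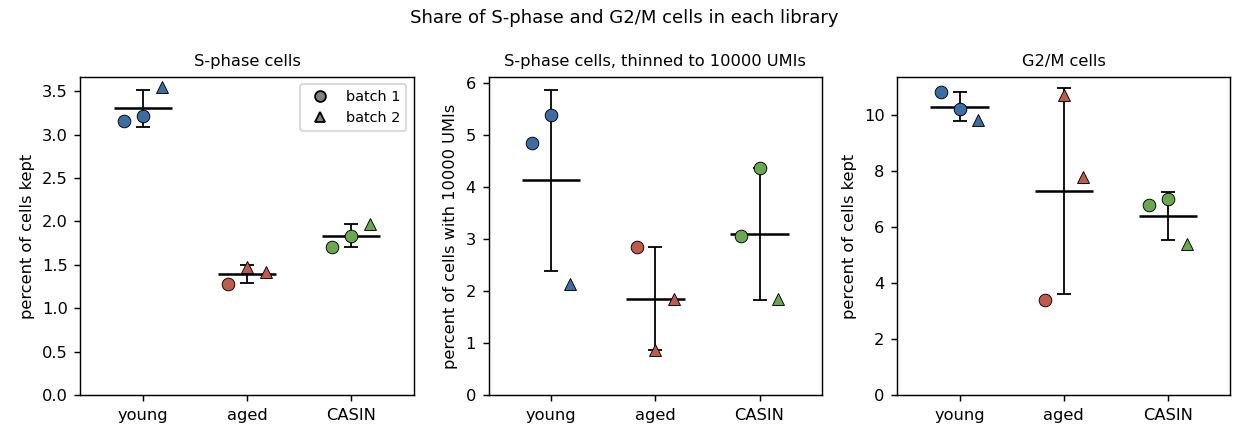
Share of LSK cells in S phase by group, in percent on the vertical axis, with all UMIs (left), with cells reduced to 10000 UMIs and shallower cells left out (middle), and of G2/M cells (right); points are libraries (circles batch 1, triangles batch 2) and bars the mean ± SD of 3. On the left the young libraries lie at 3.15% to 3.55%, above all aged (1.27% to 1.48%) and CASIN (1.70% to 1.97%) libraries, while the groups overlap in the middle and young and aged libraries do on the right.

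The other cycling classes did not separate the groups in the same way. G2/M cells were 10.8%, 10.2% and 9.82% of young LSKs, 3.38%, 10.7% and 7.79% of aged LSKs, and 6.80%, 6.99% and 5.41% of CASIN LSKs. Aged libraries overlapped both other groups, and CASIN libraries lay below the young ones. Cells entering S were 8.85% ± 2.66, 6.43% ± 1.79 and 5.80% ± 2.49 of young, aged and CASIN LSKs, with overlapping libraries. S-phase cells as a share of S-phase and G2/M cells together were 22.5% to 26.5% in young, 12.1% to 27.4% in aged and 20% to 26.7% in CASIN libraries, which also overlapped.

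By marker gate, young and aged libraries were apart in cells without Dntt, Flt3 or Procr UMIs. In these cells 3.73%, 4.06% and 4.11% were in S phase in young libraries, 1.54%, 1.59% and 1.89% in aged libraries and 0.977%, 1.88% and 2.25% in CASIN libraries. Young libraries were above all others, aged by -2.36 points within batch 1 and -2.37 within batch 2, and aged and CASIN libraries overlapped. In cells with Dntt, the shares were 4.97%, 4.33% and 4.12% in young, 4.26%, 2.82% and 2.44% in aged and 6.29%, 3.65% and 4.85% in CASIN libraries, and the groups overlapped. Over the 12 comparisons of 4 gates, the smallest exact permutation p was 0.1 (adjusted p = 0.60), and whether gates differ from each other was not tested.

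**Figure D4:**
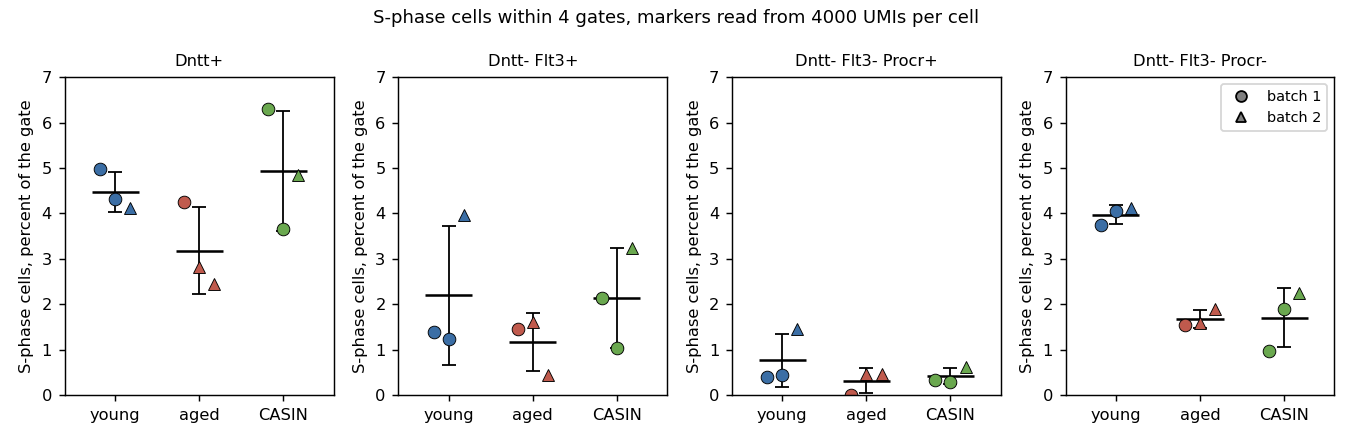
Share of the cells of each marker gate that are in S phase, in percent on the vertical axes, by group, after each cell was reduced to 4000 UMIs; points are libraries (circles batch 1, triangles batch 2) and bars the mean ± SD of 3. In cells without Dntt, Flt3 or Procr UMIs the young libraries (3.73% to 4.11%) lie above all aged and CASIN libraries (0.977% to 2.25%), and in the other gates the groups overlap.

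Gene expression in S-phase cells was compared between the groups on UMIs summed over the S-phase cells of each library. Of 7340 genes tested, 17 differed between aged and young mice, 10 higher and 7 lower in aged, by edgeR's quasi-likelihood test with an adjusted p under 0.05, which is 0.232% of genes. With DESeq2 there were 10. Between CASIN and aged mice 11 differed, 4 higher (0.0545%) and 7 lower in CASIN (0.15% in all), and 10 with DESeq2. No gene passed the test between CASIN and young mice (0%), where 358 genes (4.88%) had an unadjusted p under 0.05 and DESeq2 called 0. In a model without the batch term both counts were 0 (157 and 123 genes at an unadjusted p under 0.05), so each call rests on comparing groups within batches. Leaving out 1 library moved the counts to between 2 and 75 and to between 0 and 53. The CASIN against aged comparison and the aged against young comparison share the aged libraries.

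Immediate early genes were the group with the most calls by number. As a share of the genes tested, more of the myeloid priming genes described below were called. These transcription factors are switched on within minutes of a signal or of cell handling. In aged against young mice 4 of 23 tested were higher and 0 lower (0.136% of all genes were higher), and their median log2 fold change was 0.62 beside 0.01 over all genes. In CASIN against aged mice 3 of 23 were lower and 0 higher (0.0954% of all genes were lower), with a median of -0.81 beside 0.00.

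Nr4a1 (chr15:101254269-101274795), an orphan nuclear receptor, was at 83.6, 99.9 and 407 CPM in young, 171, 1258 and 690 CPM in aged, and 92.5, 73.0 and 438 CPM in CASIN libraries. Within each batch the aged libraries were the highest, while across batches the groups overlapped. The log2 fold change was 1.11 ± 0.19 (SE) for aged against young (adjusted p = 0.0236) and -1.14 ± 0.20 for CASIN against aged (adjusted p = 0.0322), and the UMIs were spread over 15 of 20, 24 of 25 and 23 of 25 aged cells. Egr1, a zinc finger factor, was at 304, 384 and 13.1 CPM in young, 665, 37.5 and 40.0 CPM in aged, and 312, 244 and 16.3 CPM in CASIN libraries. Its level differed more between batches than between groups, and again the aged libraries were the highest within each batch. The log2 fold change was 1.04 ± 0.17 (adjusted p = 0.0216) for aged against young and -1.26 ± 0.18 (adjusted p = 0.00761) for CASIN against aged.

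Nr4a2, a relative of Nr4a1, was at 23.1, 14.7 and 93.4 CPM in young, 51.7, 382 and 146 CPM in aged and 44.4, 28.6 and 138 CPM in CASIN libraries (aged against young 1.53 ± 0.30, adjusted p = 0.0434). Atf3, a stress-induced factor, was at 6.05, 6.74 and 79.4 CPM in young and 20.2, 255 and 153 CPM in aged libraries (1.38 ± 0.27, adjusted p = 0.0411). Both were higher in aged libraries within each batch. Fosb, a partner of Jun, was at 137, 248 and 226 CPM in aged and 102, 73.0 and 57.5 CPM in CASIN libraries, which did not overlap (3.05% of all genes were lower without overlap in this comparison; log2 fold change -1.55 ± 0.29, adjusted p = 0.0475). Calls of this group depended on single libraries: without young 3, Nr4a1 in aged against young mice had a log2 fold change of 0.95 (adjusted p = 0.376), and without CASIN 3, Nr4a1 in CASIN against aged mice had one of -1.16 (adjusted p = 0.420).

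**Figure D5:**
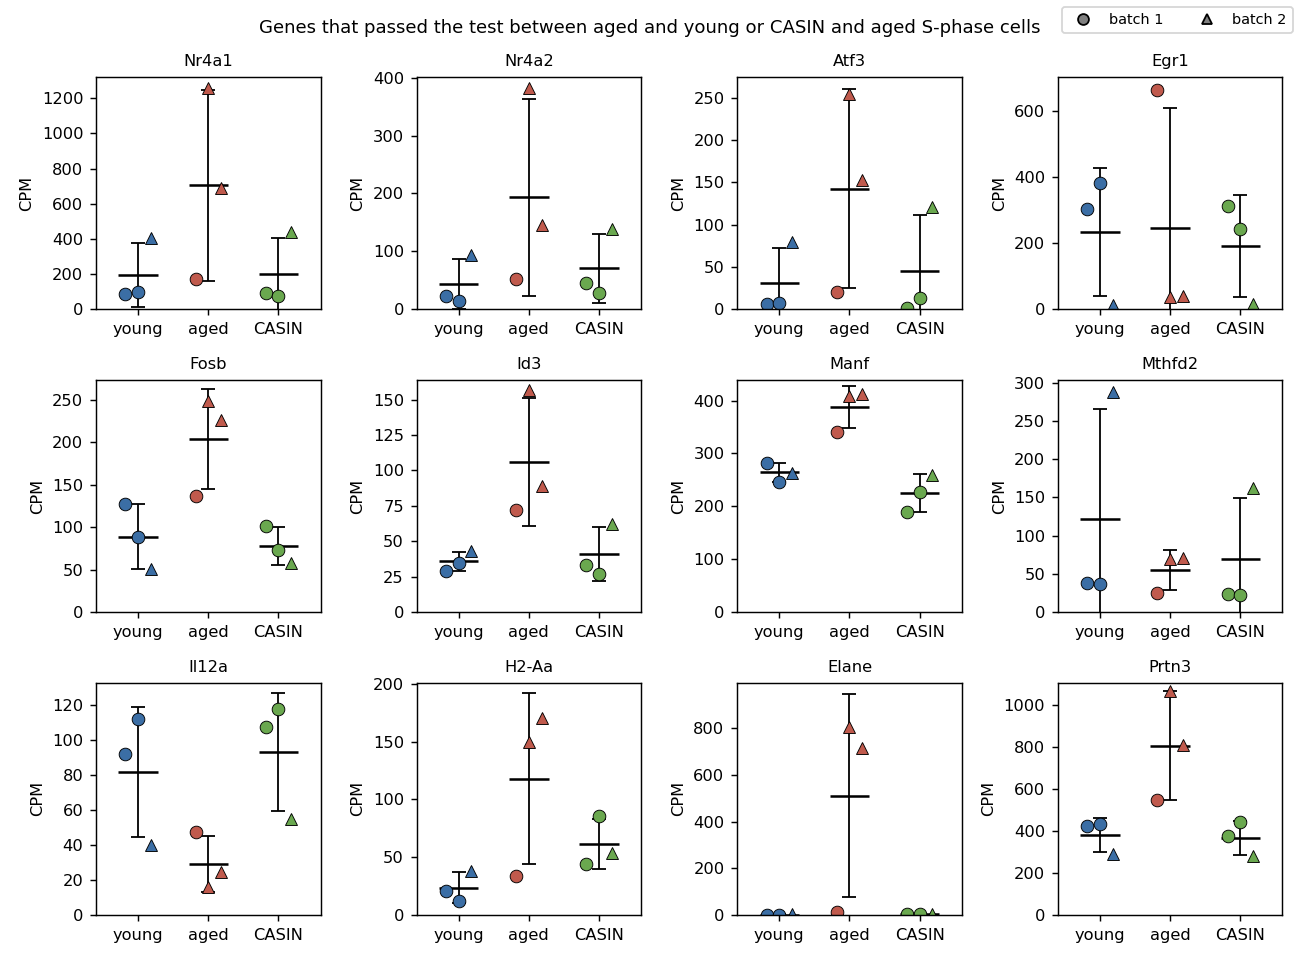
Levels of 12 genes in S-phase cells by library, in CPM on the vertical axes, with bars for the mean ± SD of 3 libraries, circles for batch 1 and triangles for batch 2. Several genes differ between batches as much as between groups, and within each batch Nr4a1 and Egr1 are highest in the aged libraries.

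Among metabolic genes, Mthfd2, the mitochondrial folate enzyme that supplies carbon units for nucleotide synthesis, was at 38.5, 36.8 and 288 CPM in young, 24.7, 69.6 and 71.2 CPM in aged, and 24.0, 22.2 and 162 CPM in CASIN libraries. Aged libraries were lower than young within each batch, by far more in batch 2. The log2 fold change was -1.78 ± 0.21 (adjusted p = 0.000508), and without young 3 it was -1.39 (adjusted p = 0.221). It was the 1 called gene of 24 nucleotide synthesis genes tested (0.0954% of all genes were lower), whose median was 0.10. Of licensing (24 tested), fork (32), repair (26), chaperone (21) and cohesin (14) genes none was called for aged against young by edgeR or DESeq2, with medians between -0.14 and -0.04 and with 0, 4, 1, 1 and 2 genes at an unadjusted p under 0.05, beside 9.35% of all genes.

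Id1 and Id3, inhibitors of basic helix-loop-helix factors, were higher in aged mice. Id1 was at 17.1, 11.0 and 8.41 CPM in young and 69.6, 28.5 and 12.2 CPM in aged libraries (2.07 ± 0.36, adjusted p = 0.0236). Id3 was at 29.2, 34.9 and 43.0 CPM in young and 71.9, 157 and 88.6 CPM in aged libraries (1.30 ± 0.23, adjusted p = 0.0259). Id3 levels of the groups did not overlap, and 3.28% of all genes were higher without overlap in this comparison. A few cells held much of both: with the richest cell of each library left out, Id1 fell below the limit for testing and Id3 had a log2 fold change of 0.87 (adjusted p = 0.397).

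Il12a, a subunit of interleukin 12, was at 91.9, 112 and 40.2 CPM in young, 47.2, 16.1 and 24.3 CPM in aged, and 107, 117 and 54.6 CPM in CASIN libraries. CASIN libraries were all above aged libraries, as for 2.48% of all genes (log2 fold change 1.33 ± 0.23, adjusted p = 0.0322). Manf, a factor of the endoplasmic reticulum stress response, was at 341, 409 and 412 CPM in aged and 189, 227 and 260 CPM in CASIN libraries, without overlap (-0.70 ± 0.13, adjusted p = 0.0371). Manf was not on the list of heat shock and unfolded protein response genes. Of the 20 listed genes tested none passed in either comparison (6 and 11 at an unadjusted p under 0.05, beside 9.35% and 7.51% of all genes; 1 and 2 by DESeq2, beside 10 and 10 of all genes), with medians of 0.24 and -0.40. B230219D22Rik, a transcript of unknown role, was at 97.9, 93.7 and 139 CPM in young, 65.1, 64.2 and 62.6 CPM in aged, and 92.5, 98.4 and 149 CPM in CASIN libraries. It was lower in aged libraries than in all others (-0.94 ± 0.17, adjusted p = 0.0259 against young, and 1.01 ± 0.17, adjusted p = 0.0322 for CASIN against aged).

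Other genes called for aged against young had levels that differed strongly by batch. Myl10, a myosin light chain, was at 63.3, 39.8 and 503 CPM in young and 24.7, 214 and 233 CPM in aged libraries (-1.09 ± 0.18, adjusted p = 0.0219). Gm15261, a noncoding transcript on the X chromosome, was at 8.25, 3.68 and 81.3 CPM in young and 2.25, 19.6 and 27.8 CPM in aged libraries (-1.78 ± 0.32, adjusted p = 0.0259), and was higher again in CASIN mice (1.70 ± 0.32, adjusted p = 0.0475). H2-Aa, an MHC class II chain, was at 20.9, 11.6 and 38.3 CPM in young and 33.7, 150 and 170 CPM in aged libraries (2.06 ± 0.39, adjusted p = 0.0316), the 1 call among 8 class II genes tested, beside 0.136% of all genes higher. Csf2rb, a cytokine receptor chain, was lower in aged mice in batch 2 and not in batch 1, and Trib3, also called lower, was under 20 CPM.

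Several calls rested on single cells, most of them among the 12 myeloid priming genes tested, of which 2 were higher and 1 lower in aged against young mice and 2 lower in CASIN against aged. Over all genes 0.136% were higher and 0.0954% lower in aged mice, and 0.0954% were lower in CASIN mice. Elane, the elastase of promyelocytes and neutrophils, was at 0, 0.614 and 3.74 CPM in young, 11.2, 807 and 716 CPM in aged and 3.70, 3.17 and 1.92 CPM in CASIN libraries. Of its UMIs, 450 of 452 in aged 2 and 411 of 412 in aged 3 were in 1 cell each. These 2 cells held 456 and 308 UMIs of Prtn3, 183 and 334 of Mpo and 202 and 175 of Ctsg, genes of the same granules, 3 and 2 of Kit and none of Ly6a. They met the Hist1h1b limit with 6 and 17 UMIs.

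Prtn3 and S100a8 were also high in these cells. Prtn3 was called in both comparisons (1.15 ± 0.23, adjusted p = 0.0411, and -1.20 ± 0.23, adjusted p = 0.0486). Without the 2 cells, a setting chosen after seeing the data, its log2 fold changes were 0.13 (adjusted p = 0.793) and -0.15 (adjusted p = 0.835), Mt1, a metallothionein, went from 3.27 ± 0.60 (adjusted p = 0.0291) to 2.14 (adjusted p = 0.126) for aged against young, and Elane and S100a8 were no longer tested. S100a8, a calcium-binding protein of neutrophils, had 0 UMIs in every CASIN library and 78 over the aged ones, at least 36.4-fold lower against a floor of 3 UMIs over the group, and 74 of the 78 were in the same 2 cells. Cd14, called higher in CASIN mice (2.73 ± 0.49, adjusted p = 0.0371), had 69 of its 78 CASIN 3 UMIs in 1 cell, and Mt1 had 134 of its 155 aged 2 UMIs in 1 cell.

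Antibody transcripts also lay mostly in 1 cell. Of 14299 UMIs of the antibody light chain Igkc in the S-phase cells of aged 3, 14126 were in a single cell, as were 4293 of 4296 of Ighg2b and 249 of 255 of Jchain. The list of B and T cell genes summed to 25237 CPM in aged 3 and to 189 to 418 CPM in the other 8 libraries, with Igkc the most abundant and 4 of its 14 genes at 0. The mature myeloid list summed to 157 to 609 CPM, with Lyz2 the most abundant and 2 of 15 genes at 0. Lists of red cells, stroma and mast cells summed to at most 149 CPM in any library. None of the 4 B and T cell, 2 red cell, 1 stroma and 1 mast cell genes tested was called by edgeR in any comparison, with at most 2 of a list at an unadjusted p under 0.05 (9.35%, 7.51% and 4.88% of all genes), while DESeq2 called 1 B and T cell gene for CASIN against aged, beside 10 of all genes. The mature myeloid list is not in this tally. Of genes named above, S100a8 was lower and Cd14 was called higher in CASIN than in aged mice. The part of other cell types in the results was not tested beyond leaving out the richest cells.

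Cdc42, whose protein CASIN targets, was at 347 ± 26.2 CPM in S-phase cells and 378 CPM outside the cycle. It did not differ past the test between aged and young mice (log2 fold change 0.03, adjusted p = 0.960) or between CASIN and aged mice (-0.09, adjusted p = 0.904). Of 12 tested genes of Cdc42 and its regulators none was called by edgeR or DESeq2 in any comparison, with 1, 0 and 0 at an unadjusted p under 0.05 (9.35%, 7.51% and 4.88% of all genes). Beside G2/M cells, 0.0202% of 9881 genes had an aged against young difference that was not the same in S-phase cells. For CASIN against aged it was 0.0506%. Beside all other LSK cells, the shares were 0.391% and 0.13% of 13029 genes. These are mRNA levels, and the activity of the protein was not measured in these cells.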

How the data were processed

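Cells were sorted from C57BL/6 mouse bone marrow as lineage-negative cKit-positive Sca1-positive, frozen, thawed and captured with 3′ chemistry, 9 libraries in all. The deposited values are raw UMI counts per gene and barcode that the authors made with Cell Ranger 3.1.0 on mm10, as the submitters' processing notes state, with no normalization. Filters kept barcodes with 1000 to 40000 UMIs, at most 6000 genes and at most 10% mitochondrial UMIs, 15975 of 32387. Scrublet called 80 doublets, which stayed in except in an alternative. The cells, gene lists and tests were chosen with earlier results of these data known.

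UMIs were summed over the S-phase cells of each library and tested with edgeR 4.0.16 (R 4.3.3; TMM, filterByExpr, quasi-likelihood test, Benjamini-Hochberg) in 1 model of all 9 libraries with the group and the sequencing batch as terms. The sign ± after a log2 fold change is the standard error. Shares were tested with exact permutation tests in scipy 1.17.1. Differences between cell classes were tested as a class by group interaction with the library as a block. The edgeR step was tested on simulated counts.

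Named genes were, per comparison, up to 12 per direction with the largest change among those called, with at least 20 CPM and the same direction in both batches; the 4 most abundant and all called members of each list; the 20 genes with the highest ratio of S-phase to other cells; the genes of the choice; and Cdc42. Genes outside this rule were chosen after their values were seen. Alternatives were DESeq2 1.42.0 as test or for size factors, every gene kept whatever its counts, a model without the batch, fits of only the groups compared, a block for the replicate number, other Hist1h1b limits, thinned cells, a 5% mitochondrial limit, a filter on residuals of genes against UMIs, and leaving out doublets or each library. Promoter windows came from RefSeq on GRCm38.p6. Some items are not reported here.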

Additional observations from a re-analysis of the deposited data

Results flagged for a closer look

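Whether a difference between groups was itself different in S-phase cells was tested in edgeR's interaction model. Against G2/M cells, 2 of 9881 genes had an aged against young difference that was not the same (0.0202%), Cd83 and Ighg2b. For CASIN against aged there were 5 (0.0506%), namely Elane (log2 difference of differences -6.78), Cd14 (4.30), Ighg2b, F630028O10Rik and Chil3. Most UMIs of Elane in aged 2 and aged 3, of Ighg2b in aged 3 and of Cd14 in CASIN 3 lay in 1 cell of the library. So did 24 of 32 UMIs of Cd83 in young 3 and 16 of 18 in aged 3, 23 of 23 of F630028O10Rik in aged 2 and 46 of 47 in aged 3, and 39 of 39 of Chil3 in CASIN 3.

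Against all other LSK cells, G2/M cells and cells entering S included, 51 of 13029 genes differed for aged against young (0.391%). For CASIN against aged there were 17 (0.13%). The 51 include Hist1h1b, whose counts chose the cells, so its call cannot be read as a result. Elane again stood apart, by 6.18 for aged against young and by -6.08 for CASIN against aged, as did Cd14 by 3.38 and Prtn3 by -0.96 for CASIN against aged. Several of the 17 rested on single cells. In aged 2 and aged 3, 1 cell of the library held most UMIs of Elane, Prtn3 and Mpo. The same held for Ighg2b, Jchain and Cd74 in aged 3 and for Cd14 in CASIN 3. Nr4a1 was higher in aged than in young mice by less in S-phase cells than in all other LSK cells (-0.78, adjusted p = 0.00197). Egr1 was lower in CASIN than in aged mice by more in S-phase cells (-0.83, adjusted p = 0.0398).

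Outside the filters, 17 of the 16412 barcodes left out met the marker rule for S phase, 11 of them above 40000 UMIs, 7 above 6000 genes and 6 above 10% mitochondrial UMIs.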

How the results depend on the processing

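No difference in share, and no named gene that was called, changed direction in any alternative in which it was tested. A change of direction in a gene that was not called was not counted as a reversal. With single libraries left out, the difference in the share of S-phase cells ran from -1.99 to -1.79 points (aged against young), 0.377 to 0.510 (CASIN against aged) and -1.55 to -1.35 (CASIN against young). Over the other definitions of the cells the directions held, but CASIN and aged libraries overlapped with 3 or 10 Hist1h1b UMIs, reduced cells or a 5% mitochondrial limit. CASIN and young libraries overlapped with 10 Hist1h1b UMIs (exact permutation p = 0.2), with cells reduced to 4000 UMIs and a Hist1h1b limit of 2 (p = 0.3) or to 10000 UMIs (p = 0.4), shallower cells being left out, or a 5% mitochondrial limit (p = 0.3), as did aged and young libraries at 10000 UMIs (p = 0.2). An edgeR model of the numbers of cells with the batch gave log2 differences of -1.30 (adjusted p = 5.56e-07), 0.46 (adjusted p = 0.171) and -0.85 (adjusted p = 1.18e-05). Its SEs were 0.0438, 0.225 and 0.181, against 0.203, 0.225 and 0.180 for counting error alone. They hold almost no spread between libraries, so all 3 p-values are too small. The exact permutation test over libraries cannot go below p = 0.1.

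Counts of called genes moved most, given here for aged against young, CASIN against aged and CASIN against young. With every gene kept they were 118, 97 and 59; without the batch term 0, 0 and 0; with only the groups compared 21, 3 and 18; with a 5% mitochondrial limit 2, 1 and 0; with the same S-phase cells thinned to 4000 UMIs before summing 8, 2 and 0; with DESeq2 10, 10 and 0. In settings chosen after seeing the data they were 23, 4 and 0 without the richest cell of each gene and library, and 15, 5 and 0 without the cells rich in Elane. Single libraries left out gave 2 (without young 1 or young 3) to 75 (without aged 1), 0 (without CASIN 3) to 53 (without aged 1) and 0 to 8 genes. With the replicate number as a block they were 19, 13 and 1, and 7 and 5 of these genes were among the 17 and 11. After group and batch were taken out, correlations of same-numbered libraries ran from -0.392 to 0.162. Those of other pairs reached 0.656 (aged 1 with CASIN 3). With so few libraries per group and batch, these values cannot show whether the numbers stand for a pairing.

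For differences between classes, keeping every gene gave 32 and 26 genes for S-phase against G2/M cells (aged against young, then CASIN against aged). Against all other LSK cells it gave 91 and 44. Leaving out the batch gave 1 and 2, and 7 and 7, in the same order. Single libraries left out gave 0 to 35 and 0 to 26, and 47 to 114 and 11 to 139. The causes were not tested. There were 19 to 71 S-phase cells per library, and single cells held most UMIs of several called genes.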

Other observations

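For 51 genes the aged against young difference was not the same in S-phase cells as in all other LSK cells. Among them the log2 fold change was lower in S-phase cells for Klf2 (by -1.23, adjusted p = 0.0382 by edgeR's interaction test) and Klf4 (-1.06, adjusted p = 0.0215), transcription factors of the same family. It was also lower for Jund (-0.68, adjusted p = 0.00561), the cycle inhibitor Cdkn1a (-0.57, adjusted p = 0.0164), Nupr1 (-1.86, adjusted p = 0.0476) and Apoe (-1.05, adjusted p = 2.82e-05). It was higher in S-phase cells for Cd48, a surface marker of progenitors (0.92, adjusted p = 0.0274), for Cd52 (1.33, adjusted p = 0.00149), for Plac8 (0.82, adjusted p = 0.00127) and for Mpo (1.50, adjusted p = 0.00127), which the 2 cells rich in Elane also held. These genes were chosen after their values were seen. The cells outside the cycle, which are most of the other LSK cells, also differed in makeup. Those with Procr and without Dntt and Flt3 were 15.1% ± 3.67 of them in young and 30.7% ± 2.89 in aged mice. Of S-phase cells they were 3.29% ± 3.20 and 5.44% ± 4.72. The part of this makeup in the differences was not tested.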
